A study of Mus musculus with 8 samples.

Results

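The guanylate-binding proteins (GBPs) are a family of large GTPases, and 10 of their genes are described here in cells sorted as endothelial from mouse melanoma: Gbp2, Gbp3, Gbp4, Gbp5, Gbp6, Gbp7, Gbp8, Gbp9, Gbp10 and Gbp11. The members were chosen by gene symbol, and the family itself was selected on its measured difference between the treatment groups in these 8 libraries. That difference is therefore given as a description, with no test. All 10 symbols were among the 20057 genes of the data, and all 10 passed the filter on low values (a larger group mean above 10 normalized reads), as did 12969 genes in all. The filter uses the larger group mean, so that a gene high in 1 group passes through that group.

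C57BL/6 mice received 250000 B16-F10 melanoma cells under the skin at 8 weeks of age. In the anti-CD40 group (n = 4 tumors) the mice were given an agonistic CD40 mAb (FGK4.5), and in the isotype group (n = 4 tumors) the rat IgG2a antibody 2A3. Both groups received 2 peritumoral injections of 30 µg, on days 13 and 16, and by the sample labels the mice were sacrificed 1 day after the last one. About 100000 cells that were negative for the leukocyte marker CD45 and positive for the endothelial marker CD31 were sorted from each tumor, and each library was made from 10 ng of their RNA. The libraries carry the names of the mice, 5N, 6L, 6R and 10N for anti-CD40 and 5L, 7N, 8N and 9L for isotype. In RNA of sorted cells, fewer cells of a type and less RNA per cell cannot be told apart.

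GBPs are textbook targets of interferon γ (IFNγ) and, to a lesser degree, of type I interferons. Binding of IFNγ to its receptor activates JAK kinases and, through GAS elements in promoters, induces genes such as that of IRF1, a factor that binds interferon-stimulated response elements (ISREs). The proteins bind GTP, assemble on membranes of vacuoles that hold bacteria or parasites and on bacterial surfaces, and can promote inflammasome activation, and in endothelial cells they are common markers of an inflammatory response.

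The 10 genes lie in 2 clusters of the mouse genome (mm10, GRCm38). On chromosome 3, Gbp5, Gbp7, Gbp3 and Gbp2 are all on the plus strand between positions 142493978 and 142638008, a span of 144 kb. On chromosome 5, Gbp8, Gbp9, Gbp4, Gbp10, Gbp6 and Gbp11 are all on the minus strand between 105014150 and 105346472, a span of 332 kb. GENCODE lists 9 of the genes as protein coding, and Gbp11 as a polymorphic pseudogene, a gene that is intact in some strains only.

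RefSeq promoters (GRCm38.p6, 250 bases before to 50 after the transcription start) were at hand for 4 of the members and for Gbp2b, a family gene of the chromosome 3 cluster that was nearly undetected in these libraries. They are shown because most members were high and low in the same libraries, and to set the promoter of a nearly silent gene beside them. Capitals mark matches, on either strand, to an ISRE core (GAAANNGAAA) and to the GAS motif (TTCNNNGAA), where N is any base.
Gbp5 (chr3:142496684-142496983, plus strand): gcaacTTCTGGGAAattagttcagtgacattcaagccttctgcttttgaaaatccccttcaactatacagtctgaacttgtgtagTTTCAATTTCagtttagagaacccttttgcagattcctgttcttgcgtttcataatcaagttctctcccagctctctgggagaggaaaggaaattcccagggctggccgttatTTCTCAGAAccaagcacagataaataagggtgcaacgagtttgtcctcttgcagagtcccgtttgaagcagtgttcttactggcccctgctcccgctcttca
Gbp7 (chr3:142530086-142530385, plus strand): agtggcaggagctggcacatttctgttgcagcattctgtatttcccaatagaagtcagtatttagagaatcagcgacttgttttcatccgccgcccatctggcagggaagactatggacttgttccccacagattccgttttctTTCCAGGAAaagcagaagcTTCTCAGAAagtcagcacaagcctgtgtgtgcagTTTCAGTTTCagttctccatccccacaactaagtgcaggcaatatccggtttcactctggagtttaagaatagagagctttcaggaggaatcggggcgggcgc
Gbp3, first promoter (chr3:142559794-142560093, plus strand): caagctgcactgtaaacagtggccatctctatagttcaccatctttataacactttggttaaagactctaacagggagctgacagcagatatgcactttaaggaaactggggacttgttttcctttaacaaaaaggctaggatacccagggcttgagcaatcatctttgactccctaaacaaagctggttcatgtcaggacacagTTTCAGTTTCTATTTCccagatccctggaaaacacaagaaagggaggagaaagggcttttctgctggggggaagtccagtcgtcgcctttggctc
Gbp2 (chr3:142620413-142620712, plus strand): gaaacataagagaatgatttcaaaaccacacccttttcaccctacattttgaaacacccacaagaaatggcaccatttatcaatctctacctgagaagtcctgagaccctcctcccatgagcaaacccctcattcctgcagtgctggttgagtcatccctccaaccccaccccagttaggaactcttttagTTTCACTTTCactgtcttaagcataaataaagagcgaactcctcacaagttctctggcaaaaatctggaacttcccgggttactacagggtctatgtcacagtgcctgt
Gbp2b (chr3:142594597-142594896, plus strand): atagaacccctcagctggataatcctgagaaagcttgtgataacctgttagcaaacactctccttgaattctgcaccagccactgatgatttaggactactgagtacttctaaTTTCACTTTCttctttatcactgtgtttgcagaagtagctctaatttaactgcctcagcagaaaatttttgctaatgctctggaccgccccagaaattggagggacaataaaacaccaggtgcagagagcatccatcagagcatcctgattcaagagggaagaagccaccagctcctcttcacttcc
An ISRE core was found in the promoter of each of the 4 members, 165 bases before the start in Gbp5, 53 in Gbp7, 59 in Gbp2, and at 2 overlapping places in Gbp3, 45 and 39 bases before the start. A second promoter listed for Gbp3 held none. Gbp2b also held 1, at 137 bases. Of 32851 mouse promoters of the same length, 3.44% held the ISRE core, 8.30% held the GAS motif and 0.454% held both. GAS matches were found in Gbp5 and Gbp7, 2 in each, and not in the windows of Gbp2, Gbp3 and Gbp2b. These matches are letters in a window and not measured binding sites.

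The depth differed widely. Reads on genes ranged from 2971689 in 5L to 64938728 in 5N, so that 1 read was worth from 0.118 to 2.44 normalized reads (gene counts divided by a size factor per library), and the 3 shallowest libraries were isotype libraries. All 15 endothelial markers had reads in every library, and their sum was 50292 to 72065 normalized reads in the anti-CD40 and 43311 to 61069 in the isotype libraries. All 9 melanoma and all 14 fibroblast and mural cell markers also had reads in every library. Isotype library 5L stood apart, with the fewest reads, the lowest endothelial sum, the highest melanoma sum (120897, against 47266 to 75708 in the others) and the lowest fibroblast and mural cell sum (100291, against 143897 to 268373). Ratios of the members and of their sums are therefore also given without 5L. The labels give the same harvest day for all mice, and no other batch. The study's methods mention a later harvest as well and a correction for harvest day, and since the labels assign no library to it, a part of harvest day in the values was not tested.

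Summed over the 10 genes, expression was about 3 times as high in anti-CD40 as in isotype libraries. The sum was 6965 normalized reads in 5N, 9128 in 6L, 10601 in 6R and 10547 in 10N, and 1144 in 5L, 3343 in 7N, 4435 in 8N and 3279 in 9L. Every anti-CD40 library was above every isotype library, the closest pair (5N and 8N) differing 1.57-fold. The ratio of the group means (9310 ± 1706 against 3050 ± 1377, SD, n = 4 each) was 3.05, and 2.53 without 5L. As a share of all normalized reads the family made up 0.121% ± 0.023 in the anti-CD40 and 0.039% ± 0.017 in the isotype libraries. The sum does not depend on how reads were split between its members, but can depend on reads shared with genes outside the family.

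The 10 members had ratios of 1.64 (Gbp9) to 11.4 (Gbp10), with a median of 3.84, beside a median of 0.992 over all genes tested. The median log2 fold change of the members was 2.18, and that of all genes tested 0.00457. All 10 met the threshold the study used, a 1.5-fold difference of the group means at an unadjusted p of 0.05 or less, in the direction of anti-CD40, where 1.28% of the 12969 genes tested met it in that direction (166 genes) and 0.239% in the other (31 genes). In 8 of the 10 genes all 4 anti-CD40 libraries were above all 4 isotype libraries, which held for 1.09% of the genes tested. Since the family was chosen on this contrast, nothing is read from these counts. At the threshold, the member just inside it was Gbp9 at a ratio of 1.64, and no member was outside it.

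**Figure D1:**
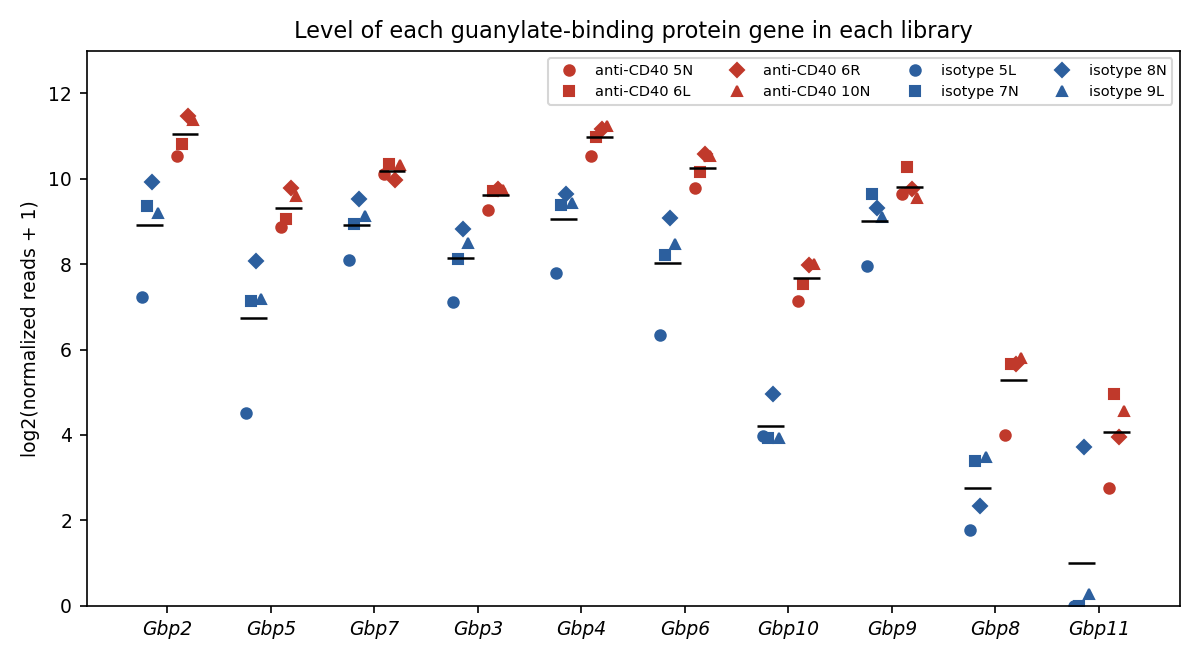
Level of each gene in each library as log2(normalized reads + 1), with anti-CD40 libraries in red, isotype libraries in blue, 1 symbol per library and a bar at the group mean (n = 4 each). The groups overlap in Gbp9 and Gbp11 and are apart in the other 8 genes, and the blue circle of 5L is at or near the bottom of its group in each gene.

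Gbp2 and Gbp5 encode members that carry a lipid (isoprenyl) anchor at the C terminus, and Gbp5 is known as a promoter of NLRP3 inflammasome assembly. Gbp2 measured 1473, 1813, 2857 and 2660 normalized reads in 5N, 6L, 6R and 10N, and 149, 654, 965 and 591 in 5L, 7N, 8N and 9L. The groups did not overlap, and the means were 2201 ± 663 and 590 ± 336 (SD, n = 4 each), a ratio of 3.73 (2.99 without 5L). Gbp5 measured 465, 529, 879 and 777 in the anti-CD40 libraries and 22.0, 140, 267 and 146 in the isotype libraries. Its groups did not overlap either, and the ratio of the means (662 ± 197 to 144 ± 100) was 4.61, or 3.60 without 5L. In 5L the value of Gbp5 rests on 9 reads, whereas 5N had 3946. In both genes 6R and 10N were the highest of the anti-CD40 libraries and 8N the highest of the isotype libraries.

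Gbp7 and Gbp3, their neighbors on chromosome 3, differed less between groups. Gbp7, which has been linked to delivery of oxidase subunits and autophagy proteins to bacterial vacuoles, measured 1098, 1301, 999 and 1283 in 5N, 6L, 6R and 10N, and 271, 488, 731 and 563 in 5L, 7N, 8N and 9L. The means were 1170 ± 147 and 513 ± 191, with a ratio of 2.28 (1.97 without 5L). Gbp7 was the member with the smallest spread in the anti-CD40 group, a coefficient of variation of 12.5%, and 6R, the library with the highest Gbp2 and Gbp5, had the lowest Gbp7 of its group. Gbp3 measured 611, 843, 865 and 847 in the anti-CD40 libraries and 137, 276, 451 and 361 in the isotype libraries. Its values in 6L, 6R and 10N lay close together and 5N was lower. The ratio of the means (792 ± 121 to 306 ± 134) was 2.59, or 2.18 without 5L.

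Gbp2b, formerly called Gbp1 and known for an expression that depends on the mouse strain, lies between Gbp3 and Gbp2. It had 16 reads in 5N, 1 each in 6R and 10N, and none in the other libraries. In 5N this came to 1.88 normalized reads, beside 1473 for Gbp2. A count of 0 allows up to 3 reads, which is 0.650 normalized reads in 9L and 7.33 in 5L, so that no fold change is given. Gbp2b did not pass the filter on low values.

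On chromosome 5 the member with the most normalized reads, not corrected for length, was Gbp4, a GBP described as a brake on IRF7 signaling. It measured 1475, 2007, 2297 and 2404 in 5N, 6L, 6R and 10N, and 220, 671, 798 and 688 in 5L, 7N, 8N and 9L. The groups did not overlap, and 5L was far below the other 3 isotype libraries. The means were 2046 ± 416 and 594 ± 256, a ratio of 3.44 (2.85 without 5L). Of the 8 members with a mean above 50, Gbp4 was nearest to their mean profile over the 8 libraries.

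Gbp6 and Gbp10, both implicated in cell-autonomous defense against intracellular bacteria, are close copies and have to be read together. Gbp6 measured 879, 1134, 1526 and 1489 in the anti-CD40 libraries and 80.6, 295, 542 and 354 in the isotype libraries, with means of 1257 ± 308 and 318 ± 190 and a ratio of 3.96 (3.17 without 5L). Gbp10 measured 141, 185, 250 and 256 in 5N, 6L, 6R and 10N, and 14.7, 14.3, 29.9 and 14.3 in 5L, 7N, 8N and 9L. Its means were 208 ± 55.2 and 18.3 ± 7.77, and its ratio of 11.4 (10.7 without 5L) was the highest of the family with all 8 libraries. Without 8N its ratio was 14.4, below that of Gbp11 (253), which then rests on 1 isotype read. Gbp10 was also the member with the widest gap, the lowest anti-CD40 library being 4.70 times the highest isotype library. In the isotype group Gbp10 rests on 100 reads over 4 libraries, 66 of them in 9L.

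Of the 50-base windows in the annotated transcripts of Gbp10, 84.1% also occur in transcripts of other genes, and 73.3% occur in Gbp6. For Gbp6 these shares were 70.7% with any gene and 49.9% within the family. The annotation also holds Gm43302, a transcript unit that shares exons with both genes. How the authors' software assigned reads that match more than 1 gene is not given in the sources used here, so the split between Gbp6 and Gbp10 is uncertain. Their sum does not depend on the split between these 2 genes, but can depend on reads shared with Gm43302 and other members. It measured 1020, 1319, 1777 and 1745 in 5N, 6L, 6R and 10N, and 95.3, 309, 572 and 368 in 5L, 7N, 8N and 9L. The ratio of the means of this sum was 4.36, or 3.52 without 5L.

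Gbp10 made up a stable part of this sum under anti-CD40. Its share of the reads on both genes was 13.8% in 5N, 14.0% in 6L, 14.1% in 6R and 14.7% in 10N. It was 4.62% in 7N, 5.24% in 8N and 3.88% in 9L, with exact (Clopper-Pearson) 95% intervals that ended at 9.78% or lower, whereas those of the anti-CD40 libraries began at 12.9% or higher. In 5L the share was 15.4%, but from 6 of 39 reads, with an interval of 5.86% to 30.5%. This interval holds the shares of the anti-CD40 libraries and lies above those of 7N, 8N and 9L. It overlaps the intervals of 7N (up to 9.78%) and 8N (up to 7.82%), but not that of 9L (up to 4.92%). These intervals cover counting error only, since PCR reads without molecular identifiers are not independent molecules.

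The study designed qPCR primers for Gbp4 and Gbp10, printed here because these are the members it chose to measure by that method. They were matched to GENCODE transcripts, and capitals are not used.
Gbp4 forward: ggagaagctaacgaaggaacaa
Gbp4 reverse: ttccacaagggaatcaccatttt
Gbp10 forward: ggtgattcctaggagagag
Gbp10 reverse: tgtccagaatctctatgg
Both Gbp4 primers matched transcripts of Gbp4 alone, with a product of 136 bases. The forward primer differed from Gbp11 at 1 base and from Gbp6 at 3, and the reverse primer at 5 and 8. The Gbp10 forward primer matched Gbp10 alone and had at least 6 mismatches in any other member. The Gbp10 reverse primer also matched Gbp4, Gbp6, Gbp11 and Gm43302 exactly. As a pair they gave a product, of 177 bases, in Gbp10 only.

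**Figure D2:**
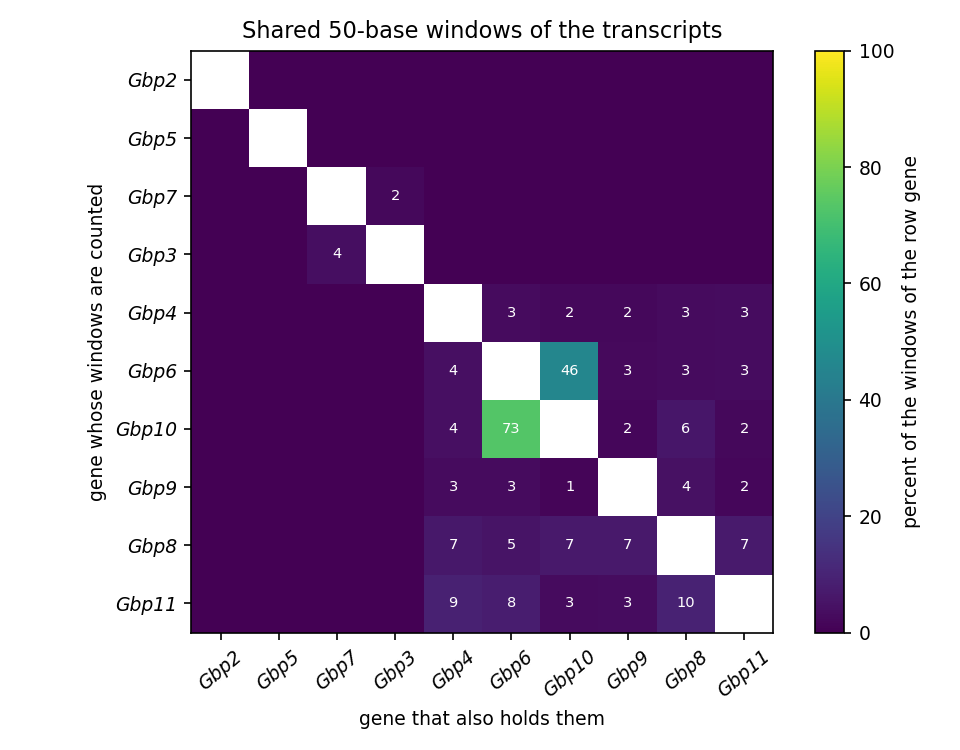
Percent of the 50-base transcript windows of the gene in each row that also occur in the gene of each column, with values of 1 or more printed and the gene itself left blank. Gbp6 and Gbp10 share the most, Gbp4, Gbp8, Gbp9 and Gbp11 share smaller parts with each other and with them, and Gbp2 and Gbp5 share none with the other 9 genes.

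Gbp9 differed least. It measured 802, 1236, 863 and 753 in 5N, 6L, 6R and 10N, and 247, 795, 636 and 551 in 5L, 7N, 8N and 9L. The groups overlapped, since 7N was above 10N, and the means were 913 ± 219 and 557 ± 230, a ratio of 1.64. Without 5L the ratio was 1.38, under the study's threshold. Gbp9 was the only member in which 7N was the highest isotype library and 10N the lowest anti-CD40 library. Annotated exons of Gbp9, Gbp8 and Gbp4 overlap on the same strand, so that reads there cannot be given to 1 gene. The sum of these 3 genes had a ratio of 2.59, or 2.16 without 5L.

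Gbp8 and Gbp11 were the least abundant members. Gbp8 measured 15.1, 49.4, 49.9 and 54.6 in the anti-CD40 libraries and 2.44, 9.52, 4.08 and 10.2 in the isotype libraries. The groups did not overlap, with means of 42.3 ± 18.3 and 6.56 ± 3.87 and a ratio of 6.44 (5.33 without 5L), but 3 of the isotype values rest on 1, 4 and 3 reads. Gbp11 measured 5.77, 30.2, 14.4 and 22.6 in 5N, 6L, 6R and 10N, 12.3 in 8N (9 reads) and 0.217 in 9L (1 read), and had no read in 5L and 7N, where up to 7.33 and 7.14 normalized reads are allowed by a count of 0. The groups overlapped, since 8N was above 5N. Its ratio of 5.86 (means of 18.3 ± 10.5 and 3.12 ± 6.09), or 4.39 without 5L, rests on 10 isotype reads, 9 of them in 8N. Without 8N, 1 isotype read remained and the ratio of the means was 253. A count of 1 read has an exact Poisson 95% interval of 0.0253 to 5.57 reads, for counting error only, so that the size of this ratio is not determined.

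**Figure D3:**
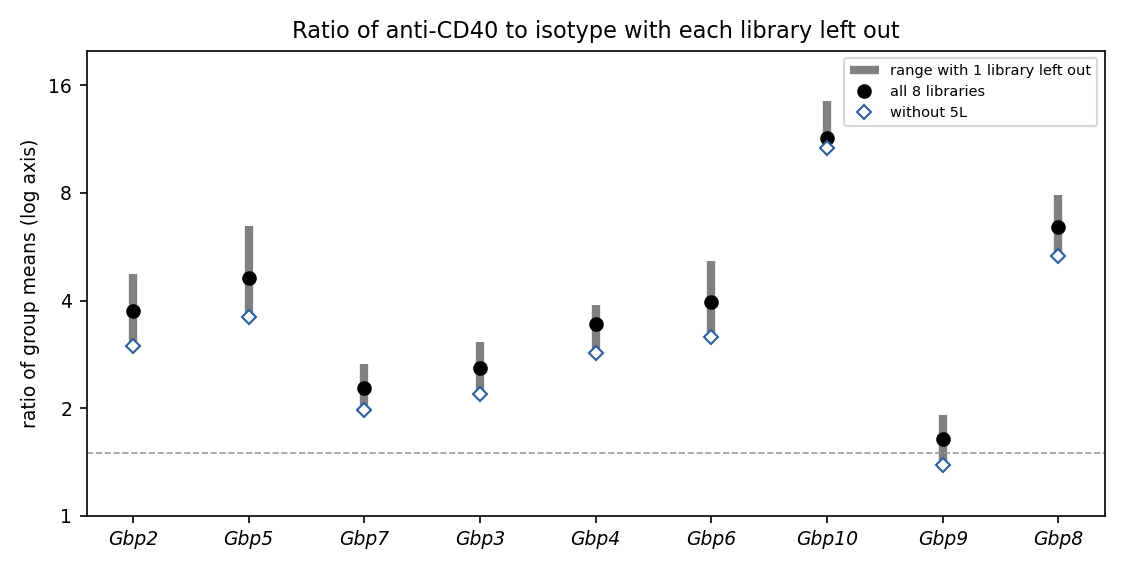
Ratio of the anti-CD40 to the isotype mean per gene on a log axis, with all 8 libraries (black), without 5L (open diamond) and as the range over leaving out each library in turn (gray bar), and a dashed line at 1.5. Gbp9 is the only gene whose bar crosses the line, and Gbp11 is not drawn because 9 of its 10 isotype reads are in 1 library.

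Compared per length of the longest annotated transcript, the order of levels was led by Gbp2 in both groups. In the anti-CD40 group Gbp2 had 875 ± 264 normalized reads per kb, followed by Gbp6 (483 ± 118), Gbp4 (451 ± 91.7), Gbp3 (295 ± 45.0), Gbp5 (217 ± 64.6), Gbp9 (209 ± 50.1) and Gbp7 (208 ± 26.1), all SD of n = 4. Gbp10 (59.0 ± 15.7), Gbp8 (17.2 ± 7.43) and Gbp11 (6.78 ± 3.91) were lower. The neighbors Gbp6 and Gbp4, and the 3 genes Gbp5, Gbp9 and Gbp7, were closer to each other than their SD. In the isotype group Gbp2 had 234 ± 134 per kb, Gbp4, Gbp9, Gbp6, Gbp3 and Gbp7 lay between 91.4 and 131 with SDs of 34.0 to 72.9, Gbp5 had 47.0 ± 32.7, and Gbp10, Gbp8 and Gbp11 had 5.19, 2.67 and 1.16. With the shortest transcript as the length, Gbp7 stood behind only Gbp2 and Gbp6 in the anti-CD40 group (469 per kb) and behind only Gbp2 and Gbp9 in the isotype group (205 per kb), since its 2 transcripts differ in length, and Gbp9 had 338 and 206 per kb.

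The shares of 4 members in the family sum did not overlap between the groups. Such a share is defined within the family only, so that no share over all genes stands beside this count. A gain of 1 member is a loss of others, and the shares follow from the ratios above. Nothing is read from the count. Of the 10 genes summed, Gbp9 made up 19.1% ± 4.32 in the isotype and 10.1% ± 2.97 in the anti-CD40 libraries. Gbp4 made up 19.6% ± 1.28 and 21.9% ± 0.680, Gbp6 9.72% ± 2.26 and 13.4% ± 1.01, and Gbp10 0.705% ± 0.401 and 2.21% ± 0.215. The closest libraries of the groups differed little for Gbp4 (21.0% and 21.2%) and Gbp6 (12.2% and 12.4%). The shares of the other 6 members overlapped, among them Gbp7 (18.0% ± 3.97 and 12.9% ± 2.75), Gbp2 (18.1% ± 3.71 and 23.3% ± 3.34) and Gbp5 (4.14% ± 1.69 and 7.03% ± 1.06). Since Gbp9 shares exons with Gbp4 and Gbp8, its share depends on how reads there were assigned. Summed, these 3 genes held 32.4% to 44.1% in the isotype and 30.3% to 36.1% in the anti-CD40 libraries, and the groups overlapped. The 4 genes of chromosome 3 together held 50.6% ± 3.18 and 51.8% ± 1.76, so that the 2 clusters had nearly the same weight in both groups.

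**Figure D4:**
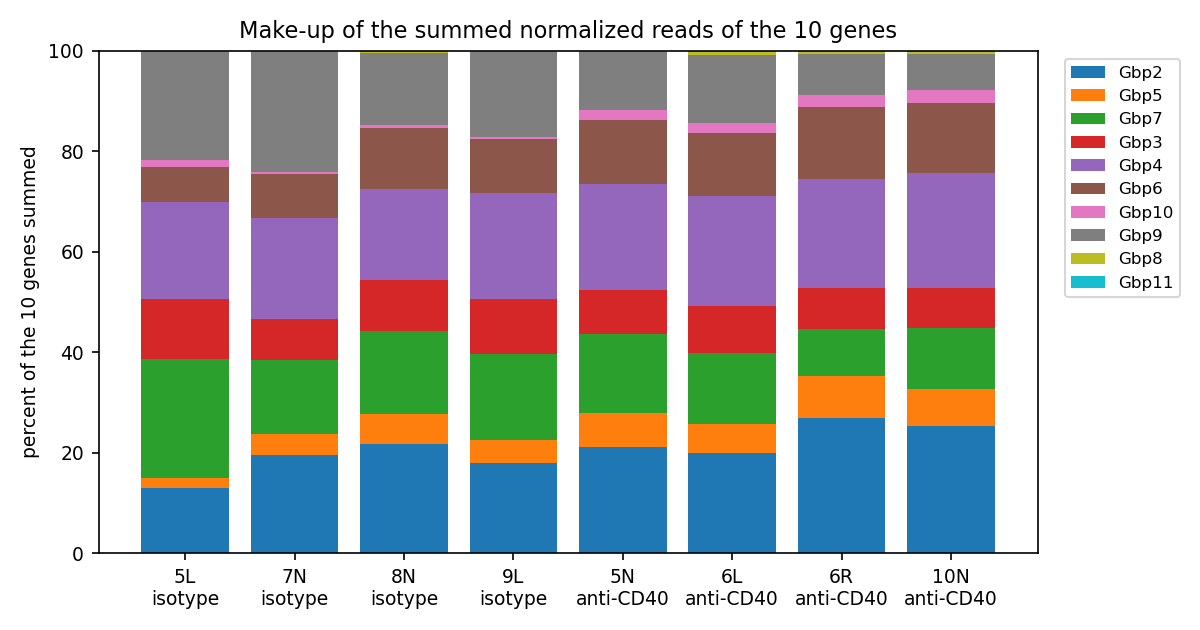
Share of each gene in the summed normalized reads of the 10 genes, 1 bar per library, isotype on the left and anti-CD40 on the right. The share of Gbp9 (gray) is 14.3% or more in each isotype library and 13.5% or less in each anti-CD40 library, whereas the share of Gbp4, Gbp8 and Gbp9 summed overlaps between the groups.

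Within the isotype group the members also varied together. Of the 10 genes, 8 were lowest in 5L alone, Gbp11 had no read in 5L and 7N, and 8 were highest in 8N, whereas of all genes tested 38.9% were lowest in 5L and 16.5% highest in 8N. In the anti-CD40 group 8 members were lowest in 5N, as were 31.2% of all genes tested. The coefficient of variation was lower in the anti-CD40 than in the isotype group for all 10 genes, but without 5L for 6 of them. Without 5L the isotype value of Gbp4 moved from 43.0% to 9.55%, below the 20.3% of the anti-CD40 group, and those of Gbp2, Gbp8 and Gbp9 (27.2%, 42.2% and 18.7%) were also below the anti-CD40 values (30.1%, 43.2% and 24.0%). With all libraries it ranged from 12.5% to 57.6% in the anti-CD40 group and from 37.2% to 195% in the isotype group. On the log2(value + 1) scale the SD was lower in the anti-CD40 group for 9 members (6 without 5L), and Gbp8 had 0.85 in the anti-CD40 and 0.83 in the isotype group. All genes tested had a median SD of 0.22 in the anti-CD40 and 0.30 in the isotype group. Depth and the markers of melanoma cells, of endothelial cells and of fibroblasts and mural cells moved with the low values of 5L. Their part in them was not tested.

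To set the family against the endothelial content of each sort, its sum was divided by that of the 15 endothelial markers. This came to 118, 127, 197 and 210 normalized reads of GBP genes per 1000 of endothelial markers in 5N, 6L, 6R and 10N, and to 26.4, 69.7, 72.6 and 54.8 in 5L, 7N, 8N and 9L. The groups were apart on this scale as well, with a ratio of 2.91, or 2.48 without 5L. Leukocyte markers summed to 1440 to 1581 normalized reads in the anti-CD40 and 1156 to 1624 in the isotype libraries, and those of macrophages and dendritic cells to 420 to 630 and 252 to 578, with Mrc1 as the only 1 of 9 tested that passed the threshold. Most of the leukocyte sum was Lcp1 (means of 1367 and 1279). Ptprc, which encodes the CD45 used for sorting, did not pass the filter on low values. It had 5.77, 1.51, 21.1 and 11.6 normalized reads in 5N, 6L, 6R and 10N, and 0, 2.38, 2.72 and 4.98 in 5L, 7N, 8N and 9L, with overlapping groups (108 and 26 reads). The 12 T and NK cell markers had 0 to 91 reads per library, none passed the filter, and Cd3d was at 0 in every library. Their sum was 4.15 to 15.0 normalized reads in the anti-CD40 and 0 to 7.14 in the isotype libraries. Named after their values were seen, Prf1 (42 reads), Cd8a (14), Klrk1 (13), Cd3e (8) and Gzmb (6) had reads in anti-CD40 libraries only, as did Cd8b1, Ncr1 and Nkg7 with 1 or 2 reads each. Cd4 was higher in the isotype group (means of 2.03 and 0.588 normalized reads, from 17 and 8 reads), Cd3g had its only read in 9L, and Klrb1c had means of 2.07 in the isotype and 2.11 in the anti-CD40 group. The 3 shallowest libraries were in the isotype group. Its deepest library, 9L with 35583141 reads on genes, also had no read of Prf1, Cd8a, Klrk1, Cd3e or Gzmb. Of the Prf1 reads 33 were in 5N, and of the Cd8a reads 8 were in 6R. The 5 B-cell markers had 0 to 35 reads, with Pax5 at 0. The part of these cells in the GBP values was not tested.

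The 6 genes outside the family whose profile over the 8 libraries was most like the mean profile of the 8 GBP members with a mean above 50 were Tgtp2, Iigp1, Nlrc5, Zbp1, Igtp and Tgtp1, in this order. Likeness was the root mean square difference of centered log2(value + 1), taken over the 8 libraries among 10729 genes with a mean above 50, and was 0.129 for Tgtp2 and 0.274 for Tgtp1, beside a median of 1.15 over those genes. Within the family it was 0.108 for Gbp4, 0.240 for Gbp6 and 0.243 for Gbp2, but 0.686 for Gbp9 and 0.867 for Gbp10. Tgtp2, Iigp1, Igtp and Tgtp1 are immunity-related GTPases, Nlrc5 is the transactivator of MHC class I genes, and Zbp1 is a sensor of nucleic acids. Since the profile contains the group difference, this order is a description.

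Other interferon-inducible GTPases were the related list with the most genes past the threshold. Of its 15 genes, all tested, 13 rose and none fell (14 and none with edgeR and with DESeq2), with a median log2 fold change of 1.59. In limma, Igtp had a log2 fold change of 1.97 (SE 0.36, adjusted p = 0.245), Irgm2 of 1.44 (SE 0.27, adjusted p = 0.259) and Tgtp1 of 2.28 (SE 0.44, adjusted p = 0.277). Iigp1 rose from 966 ± 483 to 3119 ± 895 normalized reads. Tgtp1 and Tgtp2, and Gvin1 and Gm4070 (log2 fold changes of 0.92 and 0.91), are near-identical pairs whose reads may be split between them. Mx1 and Mx2, which are named after their values were seen, did not pass (log2 fold changes of 0.84 and 0.17), but Mx1 passed with edgeR and DESeq2 (0.86 in both), in limma without the trend, with a pseudocount of 10 (0.55) and without 7N (1.04). The threshold rests on an unadjusted p, and no gene named here beside the GBPs had an adjusted p under 0.245.

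The IFN pathway upstream of GBP transcription was measured in part. Ifng had no read in any of the 8 libraries, which allows up to 0.353 normalized reads in the deepest (5N) and 7.33 in the shallowest (5L). Of the other 6 interferon genes in the data, Ifnb1 had 8 reads, 7 of them in 5N, the deepest library, and 1 in 6L. Ifne and Ifnk had 2 reads each, all in isotype libraries, and none of the 6 passed the filter. None of the 7 receptor and JAK kinase genes passed the threshold with limma, edgeR or DESeq2, and none had an unadjusted p under 0.05. Their log2 fold changes lay between -0.07 (Ifnar1) and 0.19 (Ifnar2), with SEs of 0.11 and 0.16, and Jak1 and Jak2 had 0.03 and 0.12.

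Of 11 IFN transcription factor genes, 6 rose and none fell, with a median log2 fold change of 0.76. Irf1 rose from 521 ± 178 to 1034 ± 232 normalized reads (log2 fold change 1.03, SE 0.25, adjusted p = 0.460 in limma) and Nlrc5 from 217 ± 103 to 633 ± 101 (1.70, SE 0.36, adjusted p = 0.293). Irf7, Irf8 and Batf2, named after their values were seen, were also among the 6. Irf7 (log2 fold change 0.78) lost the call when any of 5 libraries was left out (6L, 6R, 10N, 5L or 7N, with 0.55 to 0.78) and in limma without the trend, which left 5 genes. Stat2 had a log2 fold change of 0.52 and did not pass, other than without 9L (0.64).

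Among 11 inhibitors of IFN signaling, Socs1, the JAK inhibitor induced by IFNγ, was the only 1 past the threshold, with 8.35 ± 5.58 and 23.7 ± 15.0 normalized reads and overlapping groups. It lost the call when any of 5 libraries was left out (5L, 6L, 6R, 7N or 10N, with log2 fold changes of 1.06 to 1.49). Socs3, Ptpn1 and Ptpn11 had log2 fold changes of 0.17, -0.0021 and 0.0019, Ptpn6 had 0.41, and Usp18 had 0.55 and passed only when 8N was left out (0.72). Of 18 type I IFN antiviral genes 3 rose, Oas2 (0.75, SE 0.20, adjusted p = 0.599 in limma) and, named after their values were seen, Ifi44 and Cmpk2. Ifi44 (0.66) lost the call without 6L, 5L or 7N (0.42 to 0.59) and with quantile normalization (0.64). Herc6 and Ifit2 had log2 fold changes of 0.54 and 0.53 and ratios of 1.45 and 1.44, just under the threshold, and without 5N Ifit2 passed (0.60). The count was 5 without 5N and 5 without 8N. The most abundant of the list, Ifitm3, Ddx58 and Oasl2, had log2 fold changes of 0.29, 0.27 and 0.42. The median of this list was 0.49.

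**Figure D5:**
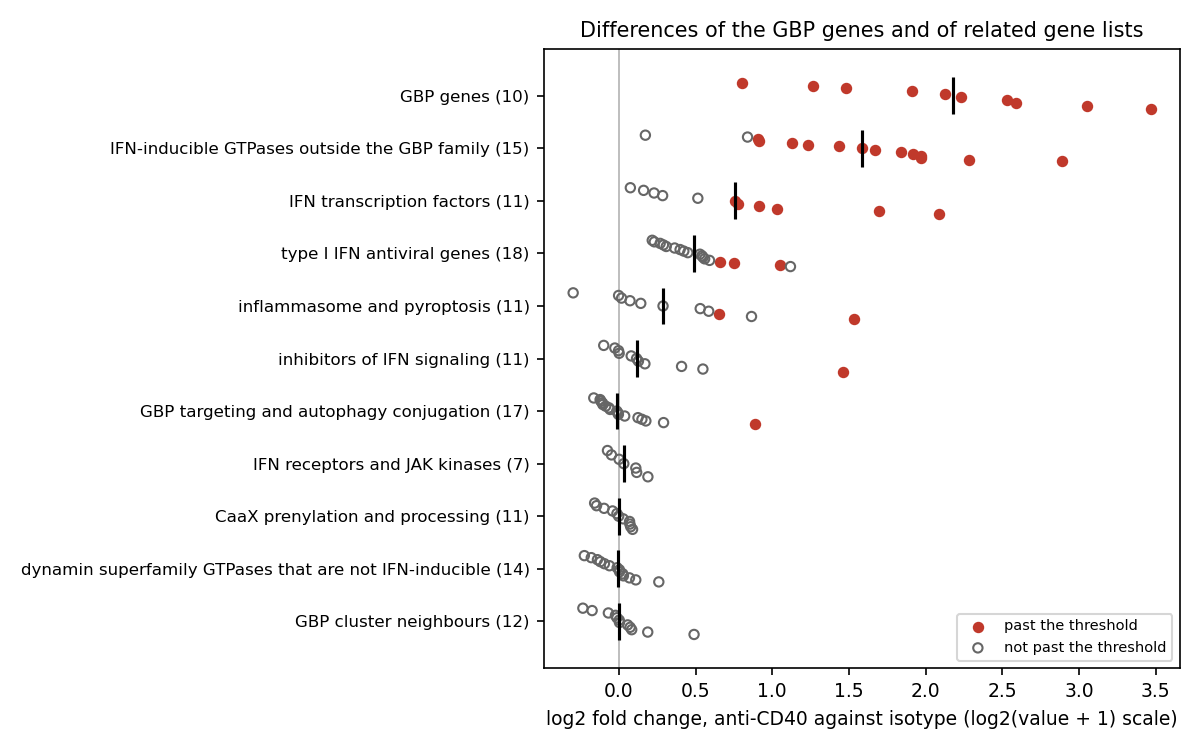
Log2 fold change (anti-CD40 against isotype, on the log2(value + 1) scale) of the 10 GBP genes and of the tested genes of 10 related lists, with genes past the threshold filled, the others open, a black line at each median and the number of genes in brackets. The medians run from 2.18 for the GBPs through 1.59 for other interferon-inducible GTPases to about 0 for the 5 lowest lists.

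Genes whose products work with or resemble GBPs were measured too. Of 11 tested inflammasome and pyroptosis genes 2 rose, Zbp1 (log2 fold change 1.54, SE 0.36, adjusted p = 0.384 in limma) and Casp1 (0.66, SE 0.26), which encodes the inflammasome protease. Casp1 lost the call without 5N, 5L, 7N or 8N, with log2 fold changes of 0.50 to 0.64, which left 1 gene of the list past the threshold without 5N or 5L. Gsdmd, which encodes the pore-forming gasdermin D, had 256 ± 6.51 and 180 ± 61.2 normalized reads and a ratio of 1.42, with groups that did not overlap, and passed without 7N (log2 fold change 0.72) or 8N (0.69). Casp8 and Ripk3 had log2 fold changes of 0.02 and -0.0017. Of 17 genes that target GBPs to vacuoles or belong to the autophagy conjugation machinery, Trim21, an antibody receptor and ubiquitin ligase, was the only 1 that rose, from 86.0 ± 32.4 to 152 ± 20.4. Atg16l1, Pim1, Gabarap, Sqstm1 and Ube2n had log2 fold changes of 0.15, 0.29, -0.12, -0.01 and -0.12.

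No gene passed the threshold, and none had an unadjusted p under 0.05, among the 11 genes of prenylation and CaaX processing (which attach the anchor of Gbp2 and Gbp5), the 14 dynamin superfamily GTPases that are not induced by interferon, and the 12 tested neighbors of the 2 GBP clusters. The count was also 0 in these 3 lists with edgeR and DESeq2 on the recovered reads. Fnta, Fntb and Ggps1 had log2 fold changes of -0.10, -0.16 and -0.15, and Zmpste24, Icmt and Rabggtb had 0.07, 0.07 and -0.01. Atl1 and Dnm1l had -0.18 and -0.14, Ehd4 had 0.26, and Ehd2 and Atl3, the remaining abundant GTPases, had 0.03 and 0.0036. Of the neighbors, Ccbl2, next to the chromosome 3 cluster, had 0.49 with a SE of 0.42 and passed without 5L (0.86), Hs2st1 and Pkn2 had -0.17 and -0.02, and Lrrc8b and Lrrc8c, next to the chromosome 5 cluster, had -0.23 and -0.07. The 10 GBP genes and the genes that flank them thus had medians of 2.18 and 0.00333.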

How the data were processed

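RNA of CD45- CD31+ cells from 8 tumors was sequenced, with 1 library per tumor. The authors used TopHat2 and Bowtie2 (version 2.2.1 in the submitters' processing notes) for alignment to mm10, took counts per gene from Partek (6.6) and normalized them by size factors from DESeq2. The deposited signal values, 1 per gene and library, are these normalized reads. The study describes flooring at 1 and a correction for harvest day, but the values hold zeros and 99.9% are whole multiples of 1 read (within 0.1 read), so that neither is visible.

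Reads per library were recovered from these steps, and a count of 0 was taken to allow 3 reads. Values were fitted as log2(value + 1) with limma (3.58.1, R 4.3.3) with trend, over 12969 genes (larger group mean above 10), with treatment as the only term and Benjamini-Hochberg adjustment. The study's model also held macrophage libraries, which were not used here. A call needs a 1.5-fold difference of the group means and an unadjusted p of 0.05 or less. Means, SDs and ratios are of the values without logarithm. The fits were tested on simulated data. Alternatives were pseudocounts of 0.1 and 10, other filters, recomputed size factors, quantile normalization, limma without trend, leaving out each library, and edgeR (4.0.16) and DESeq2 (1.42.0) on recovered reads. Replicates are separate tumors, and what the shared numbers in some of the mouse names stand for is not given.

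The members and all gene lists were chosen with earlier results of these data known. Named genes are the members, from each related list the 3 genes lowest in p and the 3 most abundant, Gbp2b, and the 6 genes with the nearest profile. A few genes that meet this rule are not reported here. Gene models were from GENCODE. Sequence sharing was counted in transcript windows of 50 bases, and promoters came from RefSeq (GRCm38.p6) for 4 of 10 members.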

Additional observations from a re-analysis of the deposited data

Results flagged for a closer look

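In each group of 4 libraries, the gap between the highest or lowest library and the next one was compared with the whole range of the group (Dixon's test at the 95% level). Of 20 cases (10 genes in 2 treatments) 4 stood out, in 2 libraries, 5N for Gbp3 and Gbp8 and 8N for Gbp10 and Gbp11. Chance gives about 1 in 20 independent groups, and these cases share their libraries, so that they are not independent.

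Gbp3 was 611 normalized reads in 5N, where the next anti-CD40 library had 843, and Gbp8 was 15.1 in 5N, where the next had 49.4. In both genes 5N, the deepest library, was the lowest of its group. Gbp10 was 29.9 in 8N, where the next isotype library had 14.7, and Gbp11 was 12.3 in 8N, where the next had 0.217. These 2 isotype values rest on 22 and 9 reads. Gbp11 had no read in 5L and 7N, which allows up to 7.33 and 7.14 normalized reads there. The test took these values as exact, so that the case of Gbp11 depends on the detection limit and nothing is read from it.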

How the results depend on the processing

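All 10 members met the threshold under 8 of the 9 other settings, and 8 did when only genes with a larger group mean above 50 were tested, which leaves out Gbp8 and Gbp11. With 1 library left out, 9 to 10 met it, and Gbp9 was the one lost, without 5L (log2 fold change 0.46) or 6L. The ratio of the summed members was 2.53 to 3.60 over the 8 fits with 1 library left out, and the median log2 fold change of the members was 1.62 (without 5L) to 2.42. No direction was reversed. The log2 fold changes of low members moved with the pseudocount, Gbp11 from 5.13 at 0.1 to 1.12 at 10, and with 10 Gbp8 came to 1.60 and Gbp10 to 2.94. Counts over all genes were less stable. Genes higher numbered 331 without a filter, and 124 to 234 with 1 library left out. Genes lower numbered 93 without a filter, 13 above a mean of 50, 57 without the trend, 47 with edgeR, 58 with DESeq2, and 27 to 123 with 1 library left out, 123 without 5L and 52 without 9L. The cause was not tested. No paired analysis was run, because the labels give no replicate numbers. The mouse names 5N and 5L share a number across the groups, and 6L and 6R share 1 within the anti-CD40 group. The labels do not say what these numbers stand for, and their part in the values was not tested. Depth limits Gbp8, Gbp10 and Gbp11, for which 1 read in 5L is worth 2.44 normalized reads.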
